A study of Mus musculus with 13 samples.

Results

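The genes described here are the cytosolic ribosomal protein (RP) genes of the mouse, 85 protein-coding genes of the 56085 genes in the deposited table, of which 55332 had a value. They were chosen by symbol alone: every protein-coding gene whose name starts with Rpl or Rps followed by a digit, a or p, without the S6 kinases, Rps19bp1 and the symbols marked as pseudogenes. Of the 85, 49 code for proteins of the large subunit, 33 for proteins of the small subunit and 3 (Rplp0, Rplp1 and Rplp2) for the acidic stalk of the large subunit. Their mRNAs were measured in 13 tumors of a mouse model of NUT carcinoma (mNC), an aggressive squamous carcinoma driven by a chromosomal translocation. In the NCT model, Cre recombinase produces this rare translocation in the tissue where the Cre is expressed, so each tumor was expected to grow from few cells, and all 13 tumors carried one NCT allele (NCT+/-). Oral tumors were made with KRT14-Cre, which is active in basal epithelial cells of the mouth, skin and salivary glands, and pancreatic tumors with Pdx1-Cre. The groups were 4 oral Sox2 WT tumors, 2 oral Sox2 KO tumors, 4 pancreatic Sox2 WT tumors and 3 pancreatic Sox2 KO tumors, the KO tumors being homozygous for a floxed Sox2 allele (Sox2fl; fl) that the same Cre removes. One label of the oral KO group names the driver KRT4Cre rather than KRT14-Cre. Each tumor gave 1 library, and the age and sex of the mice are not given in the sources used here. The p-values set a difference of groups against the spread between these tumors. They cannot tell genotype apart from library differences that follow the groups, such as depth.

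The cytosolic ribosome is built from a small subunit, which reads the mRNA, and a large subunit, which joins the amino acids. Nearly all of its proteins come from single genes, which are transcribed strongly and in proportion to each other. Their mRNAs belong to the terminal oligopyrimidine (TOP) class: transcription starts at a C followed by a run of pyrimidines, and translation of such mRNAs is controlled by the kinase complex mTORC1 through the binding protein Larp1. Mammalian genomes also hold many processed pseudogenes of RP genes, intron-free copies that were made from the mRNAs and can be nearly identical to them.

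The libraries differed in ways that touch these genes. The total of estimated counts was 11735315 and 20432164 in oral KO 1 and oral KO 2, 29394258 to 40420228 over the oral WT group, 40964533 to 46134830 over the pancreatic WT group and 89562790 to 120482829 over the pancreatic KO group. In the oral KO tumors, 59.5% and 84.5% of the counts fell on protein-coding genes, against 88.5% or more in oral WT tumors and 85.1% to 91.7% in the pancreas. Loci of the annotation class TEC, which awaits experimental evidence, took 5.42% (oral KO 1) and 1.11% (oral KO 2), and 0.363% to 0.691% over the oral WT group. Sox2 itself had at least 410 counts in each of the 8 WT tumors and at most 2 in each of the 5 KO tumors, so the genotype labels held in all 13. Levels are given as CPM, the counts per 10 to the power 6 counts of a library, scaled by TMM factors. Summed over 10 skeletal muscle markers, the level was 3053 and 5588 CPM in the oral KO group, 15.5 to 557 CPM in the oral WT group and 7.42 to 12.5 CPM over all pancreatic tumors. The 7 basal keratinocyte markers, all detected in every group, summed to 3611 and 4419 CPM in oral KO and 4437 to 8188 CPM in oral WT tumors. Of them, 4 had a negative and 3 a positive oral fold change. The 8 pancreatic acinar markers summed to at most 1.33 CPM in oral tumors, and in the pancreas they reached 282 CPM in 1 KO tumor. The summed levels of endothelial, myeloid and proliferation markers overlapped between KO and WT tumors in both tissues. The 8 lymphocyte markers were low, at 7.55 and 8.27 CPM in oral KO and 8.78 to 23.2 CPM in oral WT tumors, and overlapped in the pancreas. Of the 7 tested in oral tumors, 3 had a negative and 4 a positive fold change. The part of depth, protein-coding share and muscle RNA in the oral results was not tested. These were bulk samples, in which fewer cells of a type and less RNA per cell cannot be told apart.

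Sequences at the start sites are shown because the TOP class is defined there. RefSeq promoters on GRCm38.p6 were matched for 65 of the 85 genes. At their annotated start sites, 14 genes (21.5%) had a C followed by at least 4 pyrimidines, against 3.01% of 27025 genes with a promoter, and 30 (46.2%) had such a run starting within 5 bases of the start, against 21.2%. None of 69 matched mitochondrial RP genes had a run exactly at the start. In the 30 bases around the start of 4 genes below, the run at the annotated start is in capitals, and Rpl23 and Rpl11 are given as genes with no run near it. Rps6 and Rps27 code for small-subunit proteins and the other 4 for large-subunit proteins. They lie at chr4:86857353-86857382 (minus strand), chr3:90213634-90213663 (minus), chr7:4792950-4792979 (plus), chr9:120571502-120571531 (plus), chr11:97782425-97782454 (minus) and chr4:136053379-136053408 (minus), in the order printed.
Rps6: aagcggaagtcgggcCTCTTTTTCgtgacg
Rps27: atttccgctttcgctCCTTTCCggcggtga
Rpl28: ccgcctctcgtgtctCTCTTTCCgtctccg
Rpl14: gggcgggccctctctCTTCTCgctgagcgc
Rpl23: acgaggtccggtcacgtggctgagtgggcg
Rpl11: ctgacccataaggccacggggccggaagtc
In the 300 bases from 250 before to 50 after the start, searched on both strands, the GABP core CCGGAAG was found in 26 genes (40.0%, against 9.93% of all), the YY1 core AAGATGGC in 6 (9.23%, against 3.19%), the Sp1 box GGGCGG in 40 (61.5%, against 38.2%) and the TATA box TATAAA in 7 (10.8%, against 15.7%). A match of letters does not show that a factor binds. For the 30 genes with a pyrimidine run near the start, the median log2 fold change in Sox2 KO against WT was −0.81 (oral) and −0.35 (pancreatic). The genes without one had −0.84 (33 tested) and −0.31 (32 tested). These classes rest on annotated start positions alone, so they cannot show which mRNAs lack a TOP start.

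RP mRNAs made up a smaller share of the protein-coding counts in Sox2 KO tumors of both tissues. In the mouth, the 85 genes took 3.53%, 4.37%, 5.08% and 3.67% of the protein-coding counts of the WT tumors and 2.90% and 2.46% of those of the KO tumors. The respective means were 4.16% ± 0.712 (SD, n = 4) and 2.68% ± 0.314 (SD, n = 2), and both oral KO tumors lay below all oral WT tumors. In the pancreas the share was 3.76%, 4.24%, 4.21% and 4.67% in WT tumors, 4.22% ± 0.373 (SD, n = 4), and 3.74%, 3.54% and 3.41% in KO tumors, 3.56% ± 0.162 (SD, n = 3). The highest pancreatic KO value lay just below the lowest WT value, and the groups overlapped when the share was taken otherwise. With the genomic copies of the genes counted, it was 4.71% in pancreatic KO 1 and 4.67% in pancreatic WT 1, and of all counts, without copies, 3.24% and 3.20% in pancreatic KO 1 and KO 2 and 3.19% in WT 1. For comparison, the 78 mitochondrial RP genes took 0.222% to 0.270% in oral WT, 0.165% and 0.196% in oral KO, 0.207% to 0.226% in pancreatic WT and 0.195% to 0.241% in pancreatic KO tumors, so their share overlapped between the pancreatic groups. Relative to the mean log2 level of the WT tumors of the same tissue, the median of 82 RP genes was −0.82 and −1.07 in the oral KO tumors and −0.26, −0.40 and −0.48 in the pancreatic KO tumors, and it ranged from −0.26 to 0.39 among oral WT tumors and from −0.17 to 0.17 among pancreatic WT tumors.

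**Figure D1:**
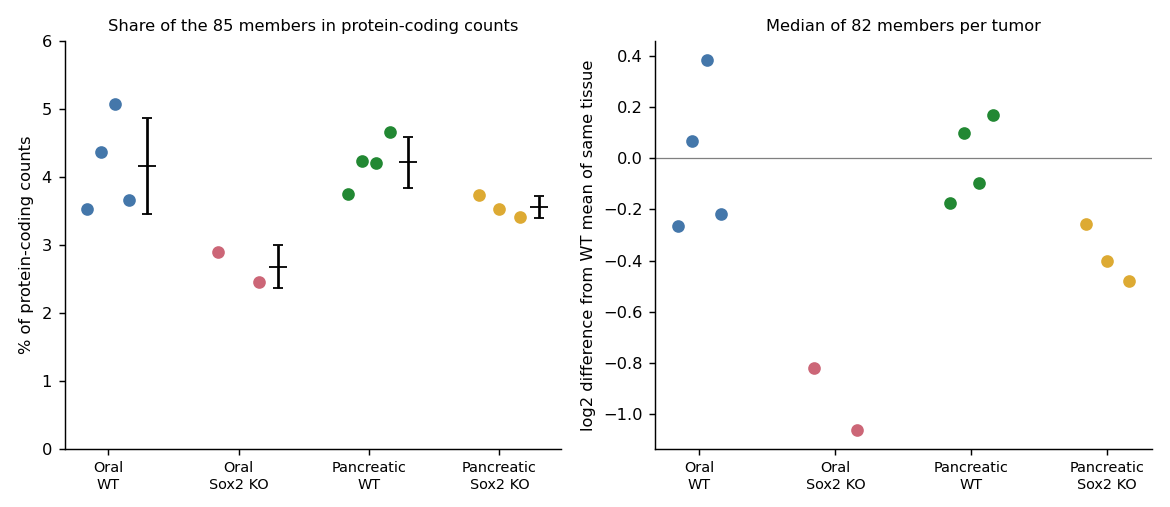
Left, share of protein-coding counts (%) taken by the 85 RP genes in each tumor, with mean and SD per group; right, median over 82 RP genes of the log2 level relative to the WT mean of the same tissue. All 5 KO tumors sit below the WT tumors of their tissue in both panels, with the highest pancreatic KO share (3.74%) close to the lowest WT share (3.76%).

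Oral Sox2 KO against WT tumors addressed whether losing Sox2 changed RP mRNA levels in the mouth. At adjusted p under 0.05 (edgeR quasi-likelihood test, Benjamini-Hochberg adjustment over all genes), 27 of the 83 RP genes tested were lower and 1 was higher in KO, and 55 did not pass. Over all 22342 genes tested, 13.8% were called, 4.58% lower and 9.2% higher, and over protein-coding genes 5.74% were lower and 3.51% higher. Of the 83, 76 had a negative fold change, against 50.1% of all genes and 60.9% of protein-coding genes. The median log2 fold change was −0.88, where the median of protein-coding genes was −0.21 and that of all genes −0.003. Both KO tumors were below all 4 WT tumors for 65 RP genes, above them for 3, and overlapped with them for 15. Over all genes tested, the KO tumors were below all WT tumors for 25.5% and above them for 22.4%, and over protein-coding genes for 32.2% and 12.4%. The separation was not particular to cytosolic RP genes. Of the 78 mitochondrial RP genes, 68 (87.2%) were below all WT tumors and 3 above, and 73 had a negative fold change. At an unadjusted p under 0.05, 64 RP genes passed in either direction, against 35.4% of all genes. The number of lower calls depended on single tumors: it was 0 without oral WT 1, oral WT 2, oral KO 1 or oral KO 2, 17 without oral WT 3 and 21 without oral WT 4, while the median ranged from −1.03 to −0.73. With protein-coding genes fitted and scaled alone it was also 0, at an RP median of −0.68 and a median of all fitted genes of −0.02. DESeq2 called 46 lower, against 10.7% of all genes.

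Of the 47 large-subunit genes tested, 18 fell, 1 rose and 28 did not pass, with a median log2 fold change of −0.90. Rpl23 was at 556, 561, 761 and 659 CPM in WT tumors and 181 and 215 CPM in KO tumors, and fell by 1.60 ± 0.24 (SE) on the log2 scale (edgeR adjusted p = 0.019). For Rpl21 the WT tumors gave 122, 122, 180 and 140 CPM and the KO tumors 46.6 and 40.8 CPM (log2 fold change −1.61 ± 0.25, edgeR adjusted p = 0.020). Both KO tumors were far below the WT range for these genes. Rpl28 was at 426, 489, 624 and 478 CPM against 177 and 171 CPM (−1.46 ± 0.24, edgeR adjusted p = 0.020). Rpl14 was at 466, 517, 681 and 539 CPM against 151 and 209 CPM (−1.54 ± 0.26, edgeR adjusted p = 0.021). The start sites of these last 2 genes are printed above. Rpl36al, a second gene for the eL42 protein of Rpl36a, fell from 83.5 to 109 CPM in WT tumors to 37.0 and 41.1 CPM (−1.17, edgeR adjusted p = 0.022). Other large-subunit genes that fell included Rpl23a (−1.36), Rpl24 (−1.30), Rpl31 (−1.28), Rpl36 (−1.25) and Rpl7a (−1.22). Rpl5 and Rpl11 form a particle with the 5S rRNA that can bind Mdm2, the negative regulator of Trp53. Rpl11 was at 361 to 571 CPM in WT and 220 and 207 CPM in KO tumors (−0.98 ± 0.25, edgeR adjusted p = 0.044), while Rpl5 was at 86.0 to 157 CPM and 91.1 and 85.2 CPM (−0.26, edgeR adjusted p = 0.530). Most counts of Rpl5 were on copies, and with these it was at 727 to 1086 CPM in oral WT and 488 and 516 CPM in oral KO tumors (−0.72, edgeR adjusted p = 0.087).

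Rpl34 was the single member called higher in oral KO tumors, at 19.4, 25.6, 30.8 and 13.1 CPM in WT and 68.4 and 53.9 CPM in KO tumors (log2 fold change 1.54 ± 0.34, edgeR adjusted p = 0.032). Its counts were shared with near-identical copies, and with these added the log2 fold change was −0.78 (edgeR adjusted p = 0.084). The other 6 RP genes with positive values did not pass. Among them, Rpl3 and Rps2 also turned negative with their copies, as described further on, and Rpl3l, the form of Rpl3 known from heart and skeletal muscle, was at 0 to 0.528 CPM in WT and 3.08 and 0.468 CPM in KO tumors (edgeR adjusted p = 0.130). The higher Rpl3l value came from oral KO 1.

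Among 33 small-subunit genes tested in the oral tumors, 9 fell, none rose and 24 did not pass, with a median of −0.92. Rps6, whose protein is the classical substrate of the S6 kinases, was at 562, 751, 1003 and 604 CPM in WT and 322 and 310 CPM in KO tumors (log2 fold change −1.13 ± 0.30, edgeR adjusted p = 0.048). Rps19, the gene most often mutated in Diamond-Blackfan anemia, was at 261 to 425 CPM and 165 and 173 CPM (−0.92 ± 0.25, edgeR adjusted p = 0.048). The KO tumors were below every WT tumor for both genes. Rps26 was at 571 to 905 CPM in WT and 288 and 281 CPM in KO tumors (−1.19, edgeR adjusted p = 0.033), and Rps25, Rps29, Rps23, Rps28 and Rps15 also fell. Rps27rt, an intron-free gene whose 252 coding bases match those of Rps27, had 130, 35, 67 and 108 counts in WT tumors and 0 in both KO tumors. Against a floor of 3 counts per library it was at least 10.3-fold lower in KO, but 92.7% of its 31-base stretches occur in other transcripts, so its counts are uncertain. Rpsa, the ribosomal protein also known as the laminin receptor, was at 908, 1582, 1970 and 1537 CPM in WT and 588 and 849 CPM in KO tumors (−0.99 ± 0.36, edgeR adjusted p = 0.099). Rps27a, which codes for a ribosomal protein fused to ubiquitin, had −0.72 (edgeR adjusted p = 0.124).

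None of the 3 stalk genes passed in oral tumors, where the stalk proteins recruit the elongation factors. Rplp0 was at 1286, 1803, 1988 and 1305 CPM in WT and 1012 and 788 CPM in KO tumors (log2 fold change −0.75, edgeR adjusted p = 0.123). Rplp2 gave −0.78 (edgeR adjusted p = 0.120). For Rplp1 the 2 KO tumors were unlike each other, at 812 and 442 CPM, against 706 to 936 CPM in WT (−0.30, edgeR adjusted p = 0.497), and without oral KO 2 its log2 fold change was 0.096.

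**Figure D2:**
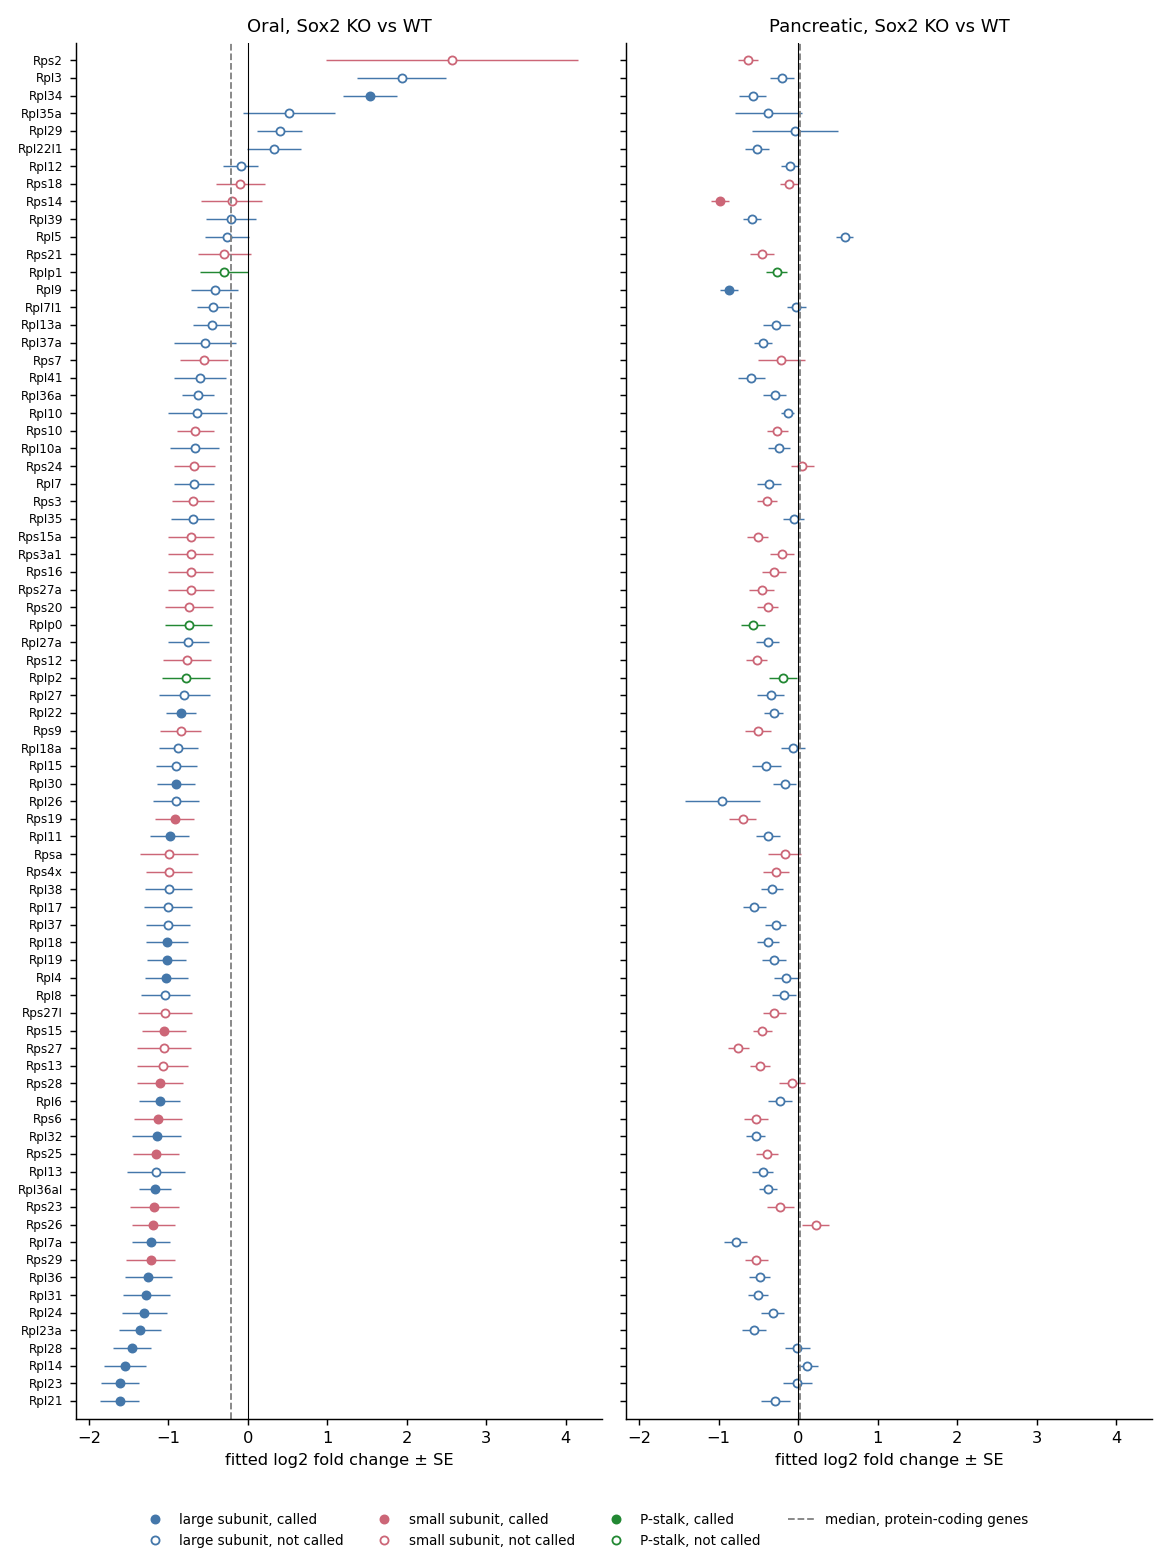
Fitted log2 fold change of Sox2 KO against WT ± SE for 77 RP genes in oral (left) and pancreatic (right) tumors, ordered by the oral value, filled where adjusted p was under 0.05, with the median of protein-coding genes dashed; Rps27rt and a few others are left out. Most points lie left of the dashed line in both tissues, around −0.88 in oral and −0.37 in pancreatic tumors.

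The progenitors of the pancreas lack Sox2, but the pancreatic WT tumors had 29.2 to 34.1 CPM of Sox2. The oral WT tumors had 9.05 to 19.7 CPM. In the pancreas, the comparison of Sox2 KO against WT tumors gave smaller differences of RP genes in the same direction. Only Rps14 and Rpl9 were called, both lower, of 82 RP genes tested. Over all 24653 genes, 0.706% were called, 0.357% lower and 0.349% higher. At an unadjusted p under 0.05, 43 RP genes passed, against 15.9% of all genes. Of the 82, 77 had a negative fold change, against 47.4% of all genes, and the median was −0.37, where protein-coding genes had a median of 0.02. The 3 KO tumors were below all 4 WT tumors for 41 RP genes, above them for 2 and overlapped for 39. Among all genes tested, 8.75% were below and 6.8% above. The median was −0.45 for the 33 small-subunit genes, −0.32 for the 46 large-subunit genes and −0.27 for the 3 stalk genes. DESeq2 called 27 lower, against 4.55% of all genes, and 2 higher, against 2.31%. Beside this, 9 keratinocyte differentiation markers summed to 507 to 1981 CPM in pancreatic KO and 3625 to 7203 CPM in pancreatic WT tumors, and 8 fibroblast markers to 2289 to 3822 CPM and 1206 to 2361 CPM. Their part in the RP differences was not tested.

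Rps14, a small-subunit protein gene, was at 481, 562, 476 and 486 CPM in pancreatic WT tumors and 251, 244 and 259 CPM in KO tumors (log2 fold change −0.99 ± 0.11, edgeR adjusted p = 0.014). Its oral values overlapped, at 250, 484, 500 and 249 CPM in WT and 359 and 250 CPM in KO tumors. Rpl9, of the large subunit, was at 654, 701, 601 and 668 CPM in pancreatic WT and 352, 376 and 342 CPM in KO tumors (−0.87 ± 0.11, edgeR adjusted p = 0.023). For these genes the KO tumors were tightly grouped and far below the WT tumors, but the calls depended on single tumors: both were lost without pancreatic WT 3, KO 1 or KO 2, and 1 remained without WT 2 or KO 3.
Other genes with large differences missed the threshold. Rpl7a was at 702 to 946 CPM in WT and 503, 466 and 478 CPM in KO tumors (−0.79 ± 0.15, edgeR adjusted p = 0.061), and Rps27 at 400 to 540 CPM and 287, 269 and 245 CPM (−0.75, edgeR adjusted p = 0.058). Rps6 was at 810, 1078, 950 and 1130 CPM and 676, 713 and 661 CPM (−0.53, edgeR adjusted p = 0.142), and Rplp0 at 1513 to 2074 CPM and 1126 to 1261 CPM (−0.57, edgeR adjusted p = 0.130). No KO value reached the WT range for these 4 genes. Rpl26 had a log2 fold change of −0.96 (edgeR adjusted p = 0.381) that rested on pancreatic WT 2, at 263 CPM against 76.6 to 91.9 CPM in the other WT tumors. Rpl5 went the other way, from 77.1 to 95.1 CPM in WT to 121 to 127 CPM in KO tumors (0.59, edgeR adjusted p = 0.058), and with its copies added it was at −0.31 (edgeR adjusted p = 0.351). Rps27rt had 0, 0, 5 and 11 counts in WT and 77, 159 and 120 in KO tumors (edgeR adjusted p = 0.130), the KO libraries being the deepest of the series.

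The tissues shared no tumor, so their directions can be set side by side. Of 82 RP genes tested in both, 71 (86.6%) had negative fold changes in both, against 23.3% of the 21524 genes tested in both and 28.4% of protein-coding genes. For 30 (36.6%) the KO tumors lay below every WT tumor in both tissues, against 2.83% of all genes and 3.61% of protein-coding genes. Among these 30 were Rpl7, Rpl7a, Rpl13, Rpl17, Rpl18, Rpl22, Rpl23a, Rpl26, Rpl31, Rpl32, Rpl36 and Rpl36al of the large subunit, Rplp0 of the stalk, and Rps3, Rps6, Rps9, Rps12, Rps13, Rps15, Rps15a, Rps19, Rps20, Rps25, Rps27, Rps27a and Rps29 of the small subunit. These counts were made without copies. With copies added, the pancreatic groups overlapped for Rpl26, and Rpl12 was lower without overlap in both tissues. Of the 78 mitochondrial RP genes, 12 (15.4%) were lower without overlap in both. RP genes also shifted together among WT tumors, so they are not separate observations. Of the 82, 76, 19, 2 and 70 lay below the WT mean in oral WT 1, 2, 3 and 4. In pancreatic WT 1, 2, 3 and 4, the numbers were 75, 8, 73 and 9.

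**Figure D3:**
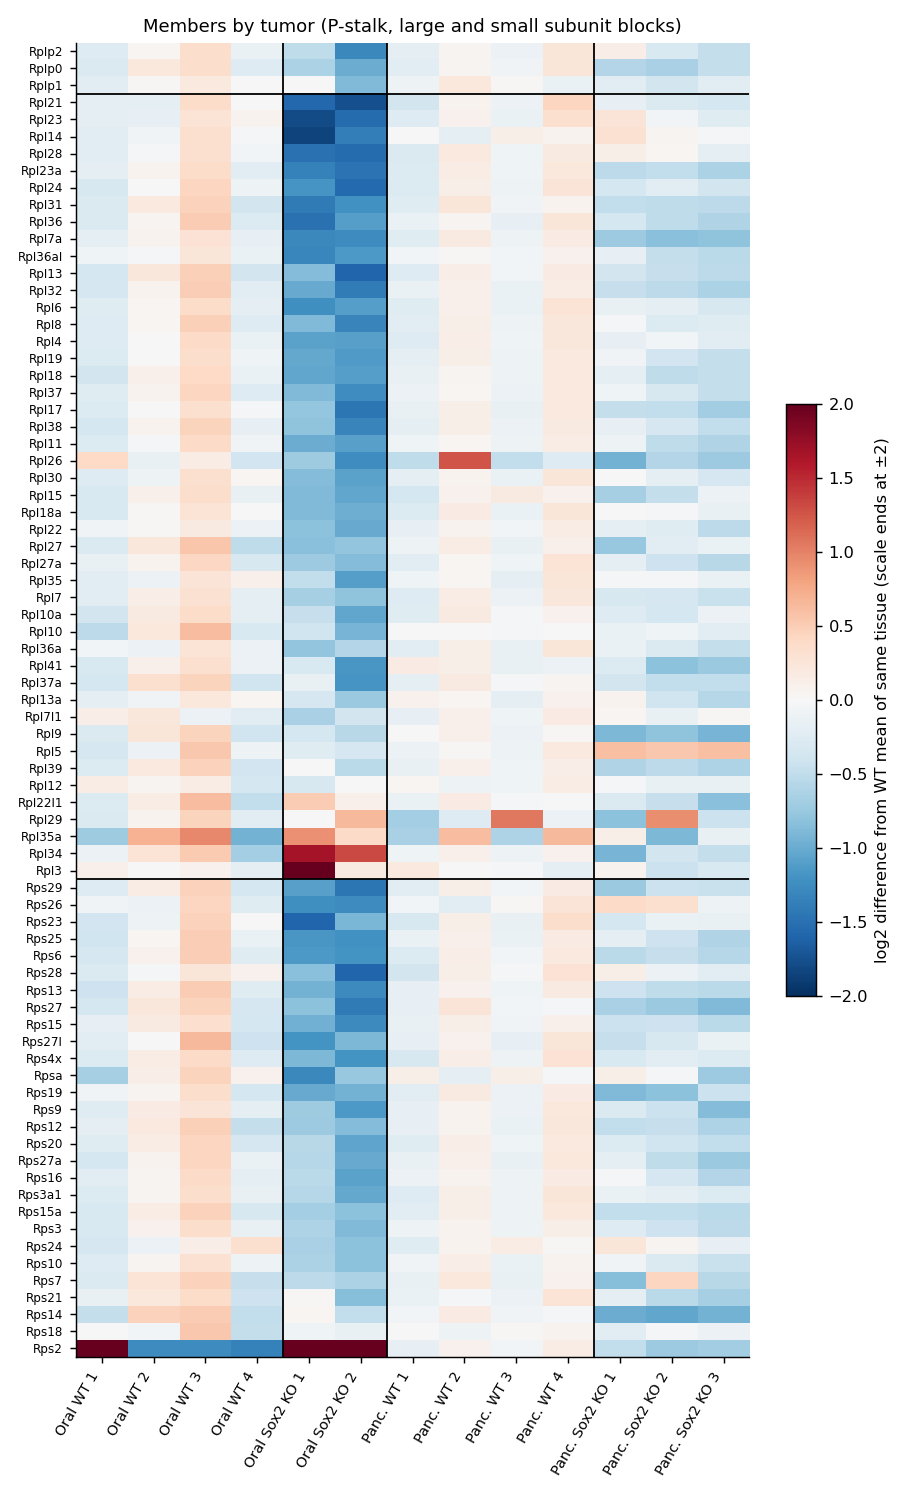
Log2 level of 77 RP genes in each of the 13 tumors relative to the WT mean of the same tissue, colored from −2 to 2. The 2 oral KO columns are the lowest for most genes, and before copies are counted Rpl34 and Rps2 are high in both oral KO tumors, Rpl3 in oral KO 1 alone and Rps2 also in oral WT 1.

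Whether the KO effect differed between tissues was tested as an interaction over all 13 tumors. The change was higher (less negative) in the pancreas for 15 of 83 RP genes and lower for Rpl3 and Rpl34. Over all 25836 genes, 15.3% were called, 7.62% higher and 7.71% lower. The median interaction was 0.57 on the log2 scale, against 0.28 for protein-coding genes. Positive values were found for 72 of the 83, against 50.9% of all genes and 10779 of 17462 protein-coding genes. The largest positive differences among called genes other than Rps27rt were for Rpl14 (1.72 ± 0.26, edgeR adjusted p = 0.006), Rpl23 (1.66 ± 0.28, edgeR adjusted p = 0.008), Rpl28 (1.52 ± 0.26, edgeR adjusted p = 0.008), Rps26 (1.47 ± 0.29, edgeR adjusted p = 0.011) and Rpl21 (1.39 ± 0.29, edgeR adjusted p = 0.014). These 5 large drops in the oral tumors had pancreatic log2 fold changes between −0.29 and 0.22. Rpl23, for example, was at 591, 747, 642 and 878 CPM in pancreatic WT and 845, 677 and 594 CPM in pancreatic KO tumors, and these ranges overlapped. For Rps14 and Rpl9, the interaction was −0.71 (edgeR adjusted p = 0.198) and −0.38 (edgeR adjusted p = 0.362), so a difference between tissues was not shown for either. With all copies added, 20 RP genes were higher and none lower. Without a single tumor the number of higher calls fell to 7 (pancreatic WT 1, WT 3, KO 1, KO 2 or KO 3), 8 (oral WT 2 or oral KO 2) or 9 (oral KO 1).

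Between WT tumors of the 2 tissues, few RP genes were called, though most had a small positive difference. Of 82 tested, Rpl41 and Rpl36al were higher in the pancreas and Rps27rt was lower, against 23.7% of 23164 genes called, 11.6% higher and 12.1% lower. Unadjusted, 15 passed at p under 0.05, against 36.8% of all genes. The median log2 difference was 0.22, and 71 were positive, against 49.7% of all genes. For 9 RP genes the pancreatic tumors were above every oral tumor, against 13.8% of all genes. Rpl41, the shortest ribosomal protein, was at 546, 721, 843 and 619 CPM in oral and 1103, 1067, 888 and 912 CPM in pancreatic WT tumors (0.54 ± 0.17, edgeR adjusted p = 0.044). Rpl36al was at 83.5 to 109 CPM in oral and 114 to 127 CPM in pancreatic WT tumors (0.37 ± 0.11, edgeR adjusted p = 0.044). For neither gene did the oral and pancreatic values overlap. The 5 largest differences of any p were those of Rps27rt, Rps2 (2.52, edgeR adjusted p = 0.174), Rpl29 (0.82, edgeR adjusted p = 0.142), Rpl26 (−0.65, edgeR adjusted p = 0.291) and Rpl9 (0.59, edgeR adjusted p = 0.060). With copies added, Rps2 had 0.28, Rpl29 0.33 and Rpl26 0.39. The calls also rested on single tumors. Without oral WT 3, the oral tumor with the highest RP share, 16 were called higher, and without any one other tumor 0 or 1. The shares of all genes called higher in these fits are not given here.

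The spread between tumors of a group was largest in the oral WT tumors. For RP genes the median SD of the log2 level over tumors was 0.327 in oral WT, 0.218 in oral KO, 0.182 in pancreatic WT and 0.133 in pancreatic KO tumors. For 1979 protein-coding genes at 100 CPM or more it was 0.249, 0.226, 0.180 and 0.159. In that group, tumor 3 had the highest and tumor 1 the lowest RP share.

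Levels compared between genes were set per kilobase of mRNA, as CPM per kb averaged over the 8 WT tumors. The highest were Rplp1 (1880), Rpl41 (1539), Rpl23a (1455), Rps27 (1247), Rplp0 (1241), Rps15 (1201), Rpl17 (1157), Rps3a1 (1032), Rps29 (1031) and Rps6 (981). For Rplp1 the level per kb averaged 1647 ± 188 (SD, n = 4) over the oral and 2113 ± 228 (SD, n = 4) over the pancreatic WT tumors. The median gene was at 570 CPM per kb, 47 genes were above 500 and 10 were under 100. Along the order of 82 genes, the tumors' ranges of neighboring genes overlapped in all but 1 of 81 pairs, so the order of neighbors is not resolved. The order also depends on which transcript length is used: with the median length of a gene's transcripts, Rplp0 moved from rank 5 to rank 1. The lowest among genes that passed the filter were Rps27rt (2.99), Rpl7l1 (22.3), Rpl3 (28.1), Rpl12 (33.0) and Rps18 (44.4). Of these, Rpl3, Rpl12 and Rps18 had most of the counts of their sequence on copies elsewhere in the genome.

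**Figure D4:**
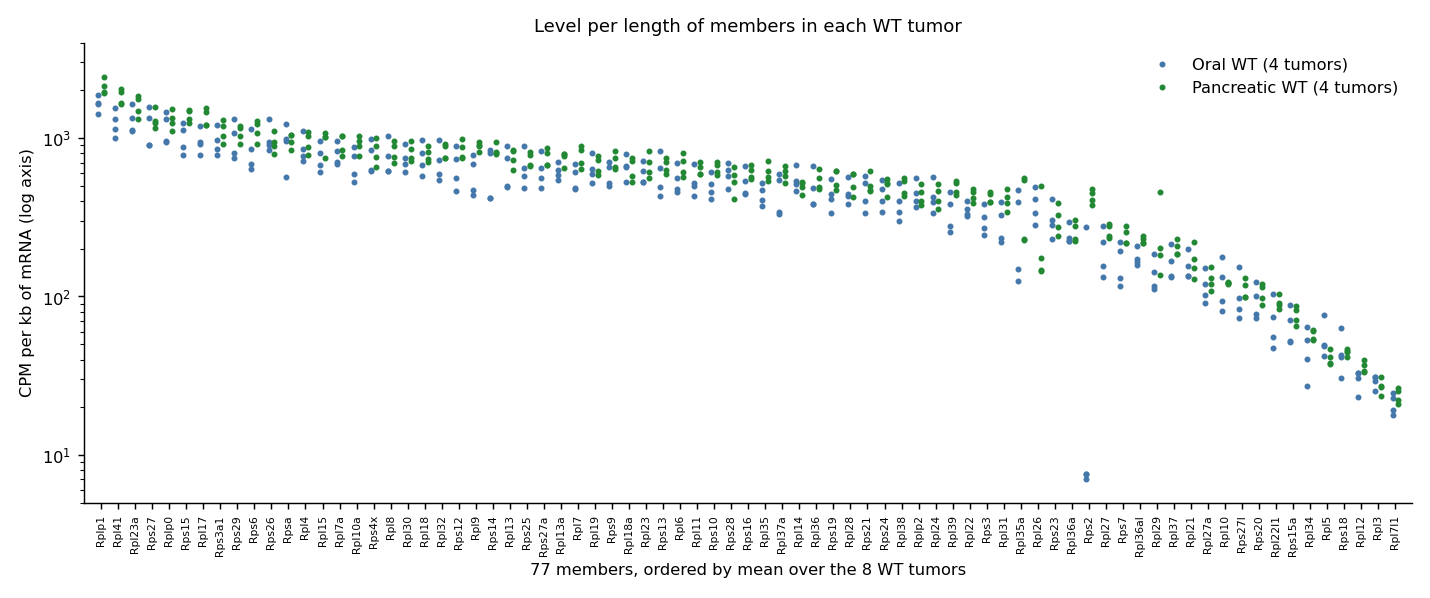
Level per length (CPM per kb of mRNA, log axis) of 77 RP genes in each of the 4 oral and 4 pancreatic WT tumors, ordered by the mean. Of 82 genes, 47 average above 500 CPM per kb, the low tail includes Rpl3, Rpl12 and Rps18, and Rps2 is split between oral WT 1 and the other oral WT tumors.

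Some RP genes have a second, related gene. Rpl22l1 codes for a paralog of Rpl22, a large-subunit protein that binds RNA, and the pair is 76.4% identical over 292 aligned bases. Rpl22 was at 158, 169, 190 and 153 CPM in oral WT and 94.4 and 82.8 CPM in oral KO tumors (log2 fold change −0.84, edgeR adjusted p = 0.034). Rpl22l1 was at 30.4, 41.0, 57.1 and 26.2 CPM in oral WT and 52.5 and 39.7 CPM in KO tumors (0.33, edgeR adjusted p = 0.517). Per length, Rpl22l1 was therefore at 16.5%, 20.9%, 25.8% and 14.7% of Rpl22 in oral WT tumors and at 47.8% and 41.1% in oral KO tumors. The oral KO ratios lay above all WT ratios. The size of the ratio depends on the length used for Rpl22: over the WT tumors Rpl22 was at 395 and Rpl22l1 at 80.9 CPM per kb of the principal mRNA, but at 91.4 and 82.9 CPM per kb of the median transcript length. With the principal lengths, in the pancreas the ratio was 21.1% ± 1.50 (SD, n = 4) in WT and 18.2% ± 1.48 (SD, n = 3) in KO tumors. The window below, from exon 3 of both genes (Rpl22 at chr4:152330064-152330123 and Rpl22l1 at chr3:28806794-28806853, plus strand, GRCm38), is shown to let the reader see how far the pair differs, with the differing bases in capitals.
Rpl22: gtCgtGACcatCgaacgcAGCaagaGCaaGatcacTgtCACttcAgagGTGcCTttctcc
Rpl22l1: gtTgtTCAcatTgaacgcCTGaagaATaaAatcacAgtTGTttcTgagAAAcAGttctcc
Rpl36al was at 72.5% ± 2.97 (SD, n = 4) of Rpl36a per length in oral WT and 50.6% and 48.9% in oral KO tumors, but with the copies of Rpl36a counted the KO tumors (32.2% and 42.0%) lay on both sides of the WT range (36.4% to 40.7%). Rps27l, a paralog of Rps27, was at 8.55% ± 1.12 (SD, n = 4) of Rps27 in oral WT and 6.50% and 12.2% in oral KO tumors, with no common direction. In the pancreas it was at 8.56% ± 1.24 (SD, n = 4) in WT and 11.8% ± 2.32 (SD, n = 3) in KO tumors. Rpl7l1, a homolog of Rpl7, stayed between 2.79% and 5.05% of Rpl7 in all 13 tumors. The testis form Rpl10l had 0 counts in every tumor, and Rpl39l was at most 0.397 CPM. Neither was tested, nor was Rpl3l in the pancreas, where it was at most 0.0561 CPM.

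Counts of RP genes were shared with their genomic copies. A median of 23.5% of the 31-base stretches of an RP mRNA also occurred in transcripts of other genes, and for 7 genes more than 50%. By these stretches, 310 genes (299 of them annotated as pseudogenes) were copies of 70 of the 85 RP genes, and 15 had none. The median share of counts on copies was above 50% for 14 RP genes, above 10% for 23 and under 1% for 52. It was 96.0% for Rpl3, 95.6% for Rpl12, 94.7% for Rps18, 88.2% for Rpl5, 86.9% for Rpl34, 85.9% for Rpl10, 77.4% for Rpl27a and 76.3% for Rps2. The counting program divides reads that match several transcripts by estimation, and the values of these genes on their own are uncertain, as are those of the 6 others above 50%, which include Rpl21 (58.2%), Rpl29 (56.0%) and Rpl31 (53.3%). With copies, Rpl21 (−1.65, edgeR adjusted p = 0.019) and Rpl31 (−1.03, edgeR adjusted p = 0.045) remained lower in oral KO tumors, and Rpl29 had −0.63 (edgeR adjusted p = 0.153).

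The sequences of 3 genes and the copy that took many of their counts show how few bases separate them. Each 60-base window lies in the coding sequence (GENCODE, GRCm38, as spliced mRNA), with the differing bases in capitals. Rps2 and Rps2-ps13 differ at 7 of 882 aligned bases, Rpl3 and Rpl3-ps1 at 2 of 1210, and Rpl34 and Rpl34-ps1 at 2 of 354. The windows are at chr17:24721012-24721071 (plus strand, exon 4 of 6 of Rps2), chrX:52899006-52899065 (plus), chr15:80082500-80082559 (minus, exon 2 of 10 of Rpl3), chrX:13202598-13202657 (plus), chr3:130729055-130729114 (minus, exon 3 of 5 of Rpl34) and chr6:71124711-71124770 (plus). Each copy is a single exon.
Rps2: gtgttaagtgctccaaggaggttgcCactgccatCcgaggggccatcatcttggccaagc
Rps2-ps13: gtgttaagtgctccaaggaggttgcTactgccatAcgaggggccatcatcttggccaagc
Rpl3: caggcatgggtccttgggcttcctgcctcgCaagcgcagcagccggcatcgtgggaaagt
Rpl3-ps1: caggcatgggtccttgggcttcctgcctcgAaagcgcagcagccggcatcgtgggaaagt
Rpl34: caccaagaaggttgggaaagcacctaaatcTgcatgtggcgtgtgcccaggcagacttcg
Rpl34-ps1: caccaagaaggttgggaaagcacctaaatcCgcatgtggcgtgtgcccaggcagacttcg
Rps2, a small-subunit protein gene, was at 275, 7.51, 7.51 and 7.01 CPM in oral WT and 536 and 290 CPM in oral KO tumors, a fitted log2 fold change of 2.57 (edgeR adjusted p = 0.287). Rps2-ps13 had 23837, 32577, 39924 and 42961 counts in the same WT tumors and 19 and 12 in the KO tumors. Gene and copies together were at 1161, 1390, 1811 and 1314 CPM in oral WT and 907 and 787 CPM in oral KO tumors (−0.67, edgeR adjusted p = 0.125), so the sum was lower where the gene alone was higher. Rpl3 was at 34.0 to 42.0 CPM in oral WT and 236 and 44.5 CPM in oral KO tumors (1.93, edgeR adjusted p = 0.062), and with copies at 750, 980, 1258 and 784 CPM and 461 and 457 CPM (−0.97, edgeR adjusted p = 0.062). Rpl34 with copies was at 149, 184, 230 and 151 CPM in oral WT and 113 and 85.0 CPM in oral KO tumors, and copies held 86.1% to 91.3% of its counts in WT and 39.3% and 36.7% in KO tumors. In all 3 families both oral KO tumors were below every oral WT tumor once the copies were counted. Rpsa and its copy Rpsa-ps10 (6 mismatches in 885 bases) split differently within a group: the copy had 13674, 12, 14 and 14 counts in oral WT and 11, 17109, 22 and 19955 in pancreatic WT tumors.

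With the counts of all copies added to each RP gene, the oral comparison gave 28 lower and 0 higher of 83 genes, 81 negative values and a median of −0.91, and both KO tumors lay below all WT tumors for 73. The pancreatic comparison gave 2 lower and 0 higher, 81 negative and a median of −0.36. Taken on their own, the copies differed by tissue. Of 128 copies tested in oral tumors, 25 (19.5%) were lower and 1 higher in KO, against 4.58% and 9.2% of all genes. In the pancreas, 23 of 207 (11.1%) were higher and 1 lower, against 0.349% and 0.357% of all genes. Those 23 were among the 83 genes of all kinds that rose by more than 1 on the log2 scale there, of which 56 were processed pseudogenes. The pancreatic KO libraries were the deepest, at 89562790 counts or more against at most 46134830 in pancreatic WT tumors, and the part of depth in the copies' calls was not tested.

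**Figure D5:**
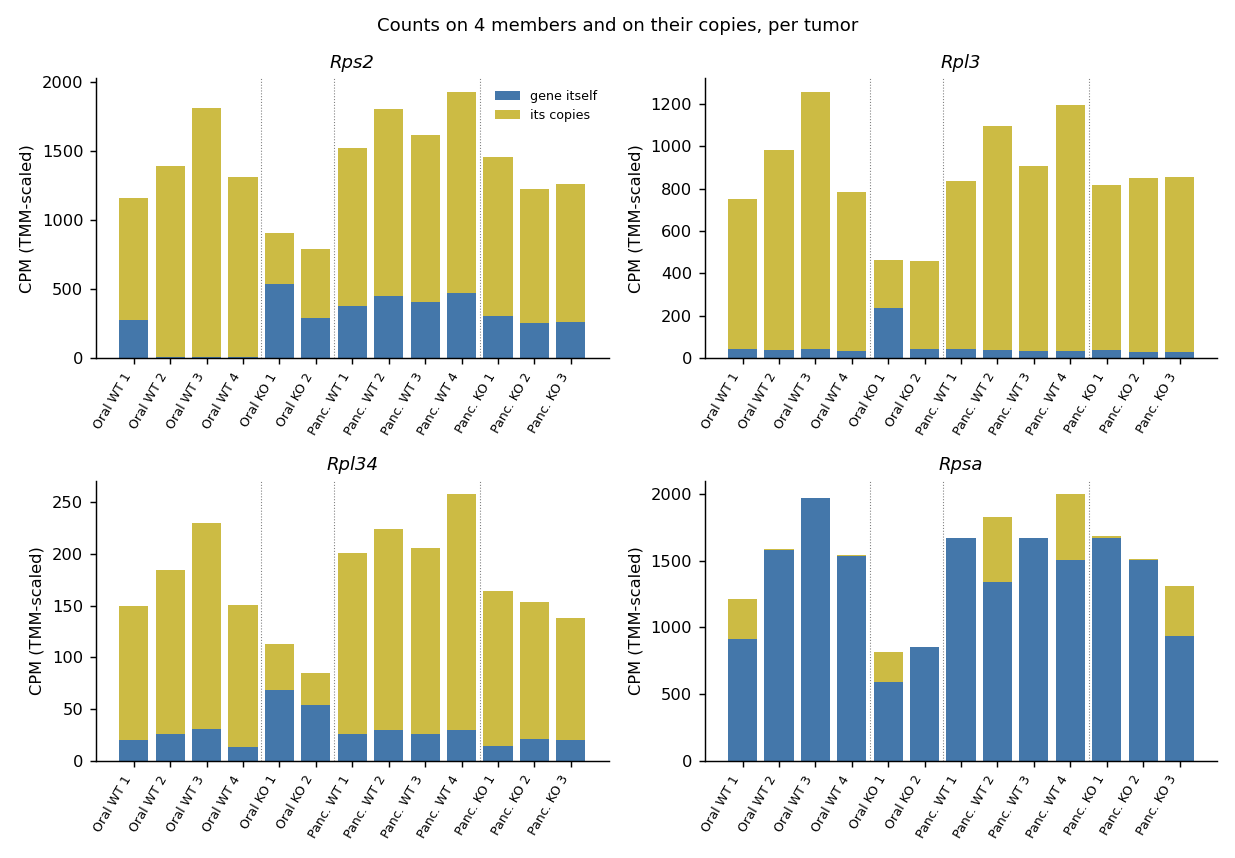
Level (CPM) of Rps2, Rpl3, Rpl34 and Rpsa in each of the 13 tumors, stacked with the counts of their genomic copies. The split between gene and copies changes from tumor to tumor, and the summed bars are lowest in the 2 oral KO tumors for all 4 families.

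Fau codes for a ribosomal protein made as a fusion, like that of Rps27a, but its name falls outside the rule. The gene, which codes for a ubiquitin-like protein fused to the small-subunit protein eS30, was at 326, 427, 518 and 476 CPM in oral WT and 208 and 164 CPM in oral KO tumors (log2 fold change −1.15 ± 0.27, edgeR adjusted p = 0.035). Its pancreatic value was −0.26 (edgeR adjusted p = 0.543).

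Genes outside the family were described from lists. Over all genes tested, 4.58% were called lower and 9.2% higher in oral KO tumors, and 0.357% and 0.349% in pancreatic KO tumors. A TOP list of 23 genes held translation factors and other genes, such as Npm1, Hnrnpa1 and Vim. Of the 23, 8 fell and 0 rose in oral KO tumors, with a median log2 fold change of −0.90. They included Eif4b (−1.14, edgeR adjusted p = 0.039), a cofactor of the mRNA helicase, and Eif3l (−0.90) and Eif3k (−0.90), subunits of the initiation factor that binds the small subunit. For 18 of the 23, both oral KO tumors were below all oral WT tumors, and for 0 above, against 25.5% and 22.4% of all genes tested. In the pancreas none of the 23 passed, and the median was −0.05. Mitochondrial RP genes, which serve a separate ribosome, had 15 of 78 lower and 0 higher in oral KO tumors (median −0.73), led by Mrpl39 (−1.50), Mrpl22 (−1.41) and Mrpl54 (−1.04), and none called in the pancreas (median −0.06). So the pancreatic median of the cytosolic RP genes (−0.37) was lower than those of both these lists. Of 11 assembly factors and chaperones of RPs, Tsr2, the chaperone of Rps26 (−1.42), and Ltv1, an assembly factor of the small subunit (−1.21), fell in oral KO tumors, and none were called in the pancreas (median 0.17). In a list of 14 regulators of mTORC1 and La-related proteins, Akt1s1, an mTORC1 inhibitor (−1.02), and Larp7, which binds the 7SK RNA and has no known role in TOP translation (−0.97), fell in oral KO tumors. Larp1 was at −0.43 (edgeR adjusted p = 0.191) in oral and 0.23 (edgeR adjusted p = 0.381) in pancreatic tumors. None of 11 transcription factors linked to RP genes passed in either KO comparison, with medians of −0.43 and 0.10. Myc, a known activator of ribosome genes, was at 120 to 189 CPM in oral WT and 245 to 323 CPM in pancreatic WT tumors, higher in the pancreas by 0.81 ± 0.17 (edgeR adjusted p = 0.010). None of 8 noncoding snoRNA host genes was called in the KO comparisons, with medians of −0.31 in oral and −0.02 in pancreatic tumors. In the interaction over both tissues, the change was higher in the pancreas for 10 of 23 genes of the TOP list (0 lower). It was also higher for 23 of 78 mitochondrial RP genes (1 lower) and 6 of 11 assembly factors (0 lower), against 7.62% of all genes. Between WT tumors, 5 of 23 genes of the TOP list were higher in the pancreas and 0 lower, against 11.6% and 12.1% of all genes. Among the 5 were Tpt1 (0.62) and Pabpc1, the poly(A)-binding protein (0.56). Of the 8 snoRNA hosts, Snhg3 (−1.07) and Snhg8 (−0.59) were lower.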

How the data were processed

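Total RNA of 13 tumors was depleted of rRNA and sequenced as stranded libraries. The authors trimmed reads with Trim Galore 0.6.10, checked them with FastQC 0.12.1, quantified them with kallisto 0.50.0 on GENCODE M23 (GRCm38) and summed transcripts to genes. The deposited values are estimated counts per gene, 27.3% of them not whole, and were rounded before fitting. A gene was tested if 2 or more tumors had 10 or more counts, with edgeR 4.0.16 (R 4.3.3; robust quasi-likelihood, TMM) within each tissue, with Benjamini-Hochberg adjustment over all genes. WT tissues were compared over 8 tumors, and the interaction over 13. CPM are counts over TMM-scaled totals of all 13. Depth, from 11735315 to 120482829 counts, sets the counting error. Gene types, lengths and sequences came from GENCODE M21 (55141 IDs matched) and RefSeq. A copy is a non-member with at least 50% of its 31-base stretches in RP transcripts. Adding all copies was an alternative chosen after seeing the data. DESeq2 1.42.0, other filters and scalings, a replicate block and leaving out each tumor were also tried. Replicate numbers shared by groups did not pair tumors.

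Genes were named by rule: paralog forms with their parents; the stalk genes and Rpsa; in each comparison, up to 5 called each way with the smallest adjusted p, or the 5 largest changes where fewer than 5 were called; genes failing the filter; the 10 highest and 5 lowest per length; Rpl5, Rpl11, Rps6, Rps19, Rps27a and Fau; up to 3 called genes per other list; and Sox2. Others, including Larp1 and the copies, were named after their values were seen. The members and lists were chosen with earlier results of these data known. A few genes are not reported here by name, though they are part of the counts and medians.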

Additional observations from a re-analysis of the deposited data

Results flagged for a closer look

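In groups of 4 tumors, 1 tumor stood apart from the other 3 by Dixon's test in 5 of 87 sets of values, where chance gives about 1 in 20. Rpl10 was at 95.9 CPM in pancreatic WT 3 and at 97.8 to 97.9 CPM in the other 3, a gap of little size. Rpl36a was at 142 CPM in oral WT 3 (108 to 113 in the others), Rps14 at 562.0 CPM in pancreatic WT 2 (476 to 486), Rpl26 at 263 CPM in pancreatic WT 2 (76.6 to 91.9) and Rps2 at 275 CPM in oral WT 1 (7.01 to 7.51). For Rpl26 and Rps2, the sum with copies did not stand apart in that way: it was 328 to 422 CPM for Rpl26 in pancreatic WT tumors and 1161 to 1811 CPM for Rps2 in oral WT tumors.

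By the interaction test at adjusted p under 0.05 (edgeR, Benjamini-Hochberg), the difference of KO from WT tumors was called unlike between tissues for 11 of the named genes. Several of them were named because of this same test, so their number is no result about the named genes. Over all genes tested, 15.3% were called. The difference, pancreas minus oral on the log2 scale, was 1.72 for Rpl14, 1.66 for Rpl23, 1.52 for Rpl28, 1.47 for Rps26, 1.39 for Rpl21, 0.91 for Rpl5, 0.87 for Rpl23a and 0.85 for Rpl36al. It was −2.05 for both Rpl3 and Rpl34, which had 0.78 and 0.31 with their copies added. Rpl5 had 0.47 (edgeR adjusted p = 0.200) with its copies. For Rps27rt the fitted difference was 13.3, which depends on the value given to libraries with no counts and is no bound.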

How the results depend on the processing

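The medians of RP genes kept their sign and moved by less than 1 SD between WT tumors in every alternative: −1.03 to −0.68 in oral KO, −0.42 to −0.30 in pancreatic KO, 0.36 to 0.75 for the interaction and 0.14 to 0.37 between WT tissues. Counts of calls were less stable, and the causes were not tested. For most alternatives, here and above, no share of all genes stands beside the RP count. A change in RP calls can then not be told from a change in the calls of all genes. Oral lower calls (27) were 44 without a filter, 46 (2 higher) with DESeq2, 62 (3 higher) in 1 fit of 13 tumors, and 0 with 0 higher when protein-coding genes were fitted alone, where 0.116% of genes were called higher and 0.0489% lower. With the filter in every tumor 2 were higher, and 0 with pseudogenes or all copies added. Pancreatic calls (2 lower, 0 higher) were 5 and 1 without a filter, 27 and 2 with DESeq2, 0 lower in 1 fit of 13 tumors and 1 higher with the filter in every tumor. Interaction calls (15 higher, 2 lower) were 23 and 1 without a filter, 8 higher with the filter in every tumor, 23 higher with DESeq2, 6 higher with protein-coding genes alone and 0 lower with pseudogenes or copies added. WT tissue calls (2 higher, 1 lower) were 0 higher with DESeq2's size factors or no filter, 6 higher and 0 lower with the filter in every tumor, 1 higher with DESeq2 and 7 higher with protein-coding genes alone. Leaving out 1 tumor gave 0 to 1 higher and 0 to 21 lower in oral, 0 to 1 and 0 to 2 in pancreas, 7 to 20 and 1 to 2 for the interaction, and 0 to 16 and 1 to 2 between WT tissues; leaving 1 oral KO tumor assumes it to vary like the WT tumors. With pseudogenes or all copies added, the oral value became −0.97 for Rpl3, −0.78 for Rpl34 and −0.67 for Rps2, the pancreatic value of Rpl5 −0.31, the interaction 0.78 for Rpl3 and 0.31 for Rpl34, and the WT value of Rpl26 0.39. Rplp1 in oral tumors ranged from −0.84 to 0.096 over left-out tumors. The RP share of protein-coding counts, with copies, was 5.19% in oral WT, 3.24% in oral KO, 5.27% in pancreatic WT and 4.46% in pancreatic KO, and, of all counts and without copies, 3.72% in oral WT, 1.90% in oral KO, 3.69% in pancreatic WT and 3.19% in pancreatic KO. Without a filter, the median of all genes moved from −0.003 to −0.107 in oral tumors and to 0.215 for the interaction. Of 706 values of single RP genes under alternatives, 549 kept direction and side of the threshold.

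Replicate numbers did not pair tumors, with correlations of same-numbered deviations from −0.09 to 0.31. With the replicate block, calls were 0 higher and 0 lower in oral (median −0.76), 1 higher in pancreas, 6 and 1 for the interaction and 1 higher between WT tissues.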
